A study of Drosophila melanogaster with 46 samples.

Results

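The comparison described here is that of light hours with dark hours in heads of inc1 flies. Of the 46 libraries of the series, 12 were from inc1 flies aged 27 days, and they were divided by collection time alone. The 6 light-hour libraries were collected at ZT0, 4, 8, 24, 28 and 32, and the 6 dark-hour libraries at ZT12, 16, 20, 36, 40 and 44, where ZT (Zeitgeber time) counts hours from lights on in a cycle of 12 h of light and 12 h of dark. The series also holds 12 libraries from wakeD2 and 10 from the control strain Canton-S w1118 (iso1CJ), called WT, also from flies aged 27 days, and 12 from WT at 49 days. The mutant inc1 is a single allele of insomniac (inc), wakeD2 is an allele of wide awake, and both had been backcrossed to the control strain.

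Each library was made from pooled heads of both sexes at 1 collection time, and no collection time was repeated within a sampling day. The collection times of a group therefore served as its replicates, and p-values measure the spread between them, which includes the change of a gene within the light or the dark. The deposited values are numbers of reads per gene. They are given here as CPM, the count of a gene relative to the total of its library (counts per 1e+06 reads), scaled by edgeR's TMM factors. Log2 fold changes are light over dark, so a positive value means a higher level in light, and genes were called at an adjusted p under 0.05 in edgeR's quasi-likelihood test.

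The fly clock is a feedback loop in which Clk and cyc drive transcription of per and tim, whose proteins return to the nucleus and repress that transcription, while vri, Pdp1 and cwo form further loops around Clk. Cryptochrome, the product of cry, is a blue-light photoreceptor that resets the loop, and fly heads carry such clocks in neurons, photoreceptors, glia and fat body. The product of inc is thought to act as an adaptor of the Cul3 ubiquitin ligase, and flies that lack it sleep little.

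Reads counted per library numbered 12630462 to 28906177 in light and 17121985 to 25609641 in dark, and 3 counts correspond to at most 0.238 CPM in light and 0.175 CPM in dark. The inc gene was at 8.525 to 15.12 CPM in the inc1 libraries, against 66.52 to 104.3 CPM in the WT libraries. RNA of body tissues, read from the median of 21 male accessory gland genes, was above 1 CPM in 3 light-hour libraries (ZT0, ZT4 and ZT32) and in 1 dark-hour library (ZT44). None of the genes called in the comparison belonged to the 468 tested genes set aside as body-tissue genes. The light-hour library at ZT8 had the lowest total count and the highest sum of neuronal markers. Without the 4 libraries with body-tissue RNA, which leaves 3 against 5, 0 genes were called higher and 2 lower in light.

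Few genes passed the test. Of 9969 genes tested, 45 (0.451%) were called. Of these, 10 (0.1%) were higher in light, by 1.257-fold to 8.604-fold, and 35 (0.351%) were lower in light, with dark-hour levels 1.295-fold to 3.029-fold those in light. The 6 light values lay above the 6 dark values, or below them, in 42 of these 45 genes. Over all genes tested, 35 (0.351%) had all light values above all dark values and 87 (0.873%) had all dark values above all light values. At an unadjusted p under 0.05, 362 genes (3.63%) were higher and 593 (5.95%) lower in light, and DESeq2 called 61 higher and 156 lower, among them all 45. When the 6 times of day were terms of the model, so that the spread came from the 2 sampling days alone, 104 genes were called higher and 184 lower.

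The calls depended on which collection times were in the fit. Leaving out each library in turn left 1 to 13 genes higher and 10 to 41 lower in light, and 11 genes kept their call in every one of these 12 fits: CG5853, CG31100, CG10073, CG10175, firl, Nepl21, Ance-5, CG8665, Cyp18a1, Cyp4ac2 and Mccc1. The fewest of the 45 genes kept their call without ZT4 or ZT16 (12 each), then without ZT28 or ZT40 (13 each), ZT0 (19), ZT36 (20), ZT8 or ZT12 (22 each), ZT24 (23), ZT20 (24), ZT32 (33) and ZT44 (36). The calls also depended on the division at the light switch. With the 4 libraries at ZT0, 12, 24 and 36 left out, 10 genes were called higher and 29 lower, of which 2 and 9 were among those above, and with ZT0 and ZT24 counted as dark and ZT12 and ZT36 as light, 18 and 21 genes were called and none was shared.

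**Figure D1:**
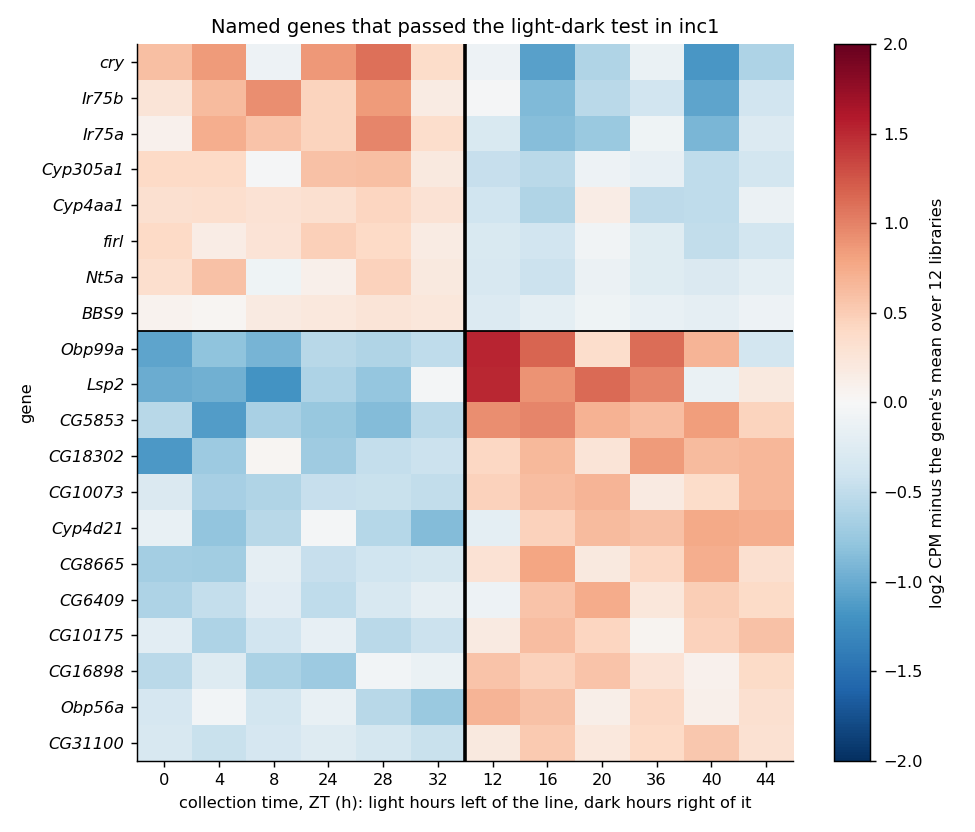
Level of 20 genes called in inc1 (rows) in each of the 12 libraries (columns, by ZT in h), as log2 CPM minus the mean of that gene over the 12 libraries, with light hours to the left of the vertical line and dark hours to the right. The 8 genes above the horizontal line were higher in light, and the 12 below it were lower in light; cry, Lsp2 and Cyp4d21 have ranges that overlap between light and dark.

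Among the genes of the clock, cry alone passed the test. It had 115.6 CPM at the lowest, 206.8 at the median and 265.5 at the highest in light, against 55.26, 81.66 and 116.3 CPM in dark. The ranges touched at one point, where ZT8 in light (115.6 CPM) lay below ZT12 in dark (116.3 CPM). The mean of cry was 197 ± 53.79 CPM in light and 84.45 ± 25.93 CPM in dark (SD, n = 6 each), a log2 fold change of 1.22 with SE 0.23 (adjusted p = 0.0424, edgeR). The gene lies on chromosome arm 3R at 19212154 to 19215442 of the Release 6 assembly, on the plus strand. Its call held in 1 of the 12 fits that leave out a library.

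In the other clock genes the light and dark ranges overlapped. In light tim had 124.2, 179.8 and 592.9 CPM as lowest, median and highest, against 530.2, 1037 and 1086 CPM in dark. Its difference, -1.62 with SE 0.43, was larger than that of cry, but the values within the light varied too (adjusted p = 0.161, edgeR). The gene was at 124.2 and 133.6 CPM at ZT4 and ZT28 in light, and at 1086 CPM at both ZT12 and ZT36, the hour of lights off. For per the same 3 values were 34.06, 53.37 and 165 CPM in light and 51.46, 174.5 and 207.2 CPM in dark (log2 fold change -0.87, SE 0.48, adjusted p = 0.619, edgeR). It was low on both sides of lights on, at 35.79 and 34.06 CPM at ZT0 and ZT24 in light and 56.41 and 51.46 CPM at ZT20 and ZT44 in dark.

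Of the genes of the second loop, vri, a repressor of Clk, had a log2 fold change of -1.03 (SE 0.47, adjusted p = 0.512, edgeR) and Pdp1, an activator of Clk, one of -0.67 (SE 0.26, adjusted p = 0.411, edgeR). Clk itself was at 53.47, 76.15 and 81.08 CPM in light, against 20.45, 26.49 and 87.27 CPM in dark, with its lowest values at ZT12 and ZT36 and its highest at ZT20 in the dark. Its log2 fold change was 0.71 (SE 0.37, adjusted p = 0.61, edgeR). The partner of Clk, cyc, had -0.06 (SE 0.05, adjusted p = 0.733, edgeR) and ranged over the narrow interval of 38.52 to 42.59 CPM in light and 40.29 to 45.46 CPM in dark. The repressor cwo had -0.14 (SE 0.16, adjusted p = 0.833, edgeR). With the 6 times of day as terms, tim, vri, Clk, per and Pdp1 passed as well, with adjusted p between 3.38e-06 (tim) and 0.00651 (Pdp1) in edgeR, while cyc (0.512) and cwo (0.133) did not. Of 17 tested kinases, phosphatases and degradation factors of the clock proteins, 0 passed (none at an unadjusted p under 0.05 either), and their median log2 fold change was -0.01, beside 0.01 over all genes tested.

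**Figure D2:**
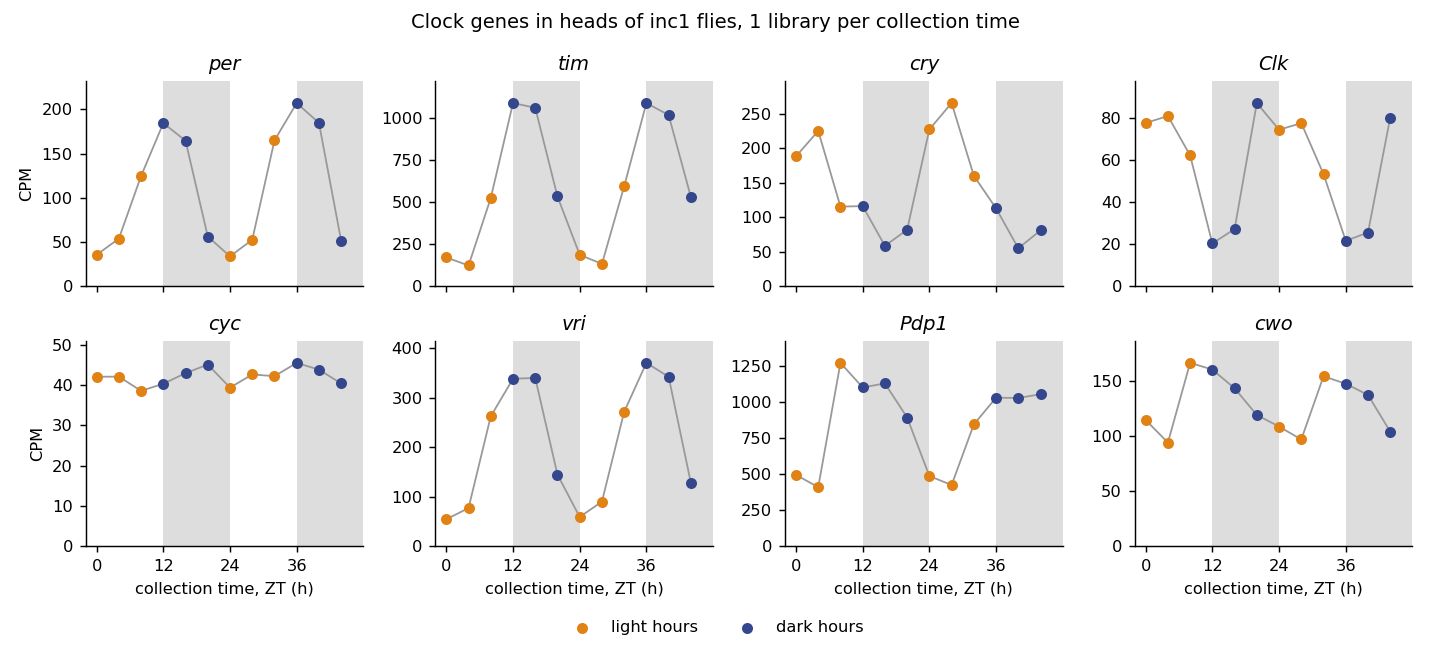
Level of 8 clock genes (CPM, linear axes from 0) against collection time (ZT, h) in inc1 heads, 1 library per point, with light hours in orange, dark hours in blue and the dark phase shaded. The levels of per, tim and vri were highest at ZT12 or ZT16 on the first day and at ZT36 on the second, Clk was lowest at ZT12 and ZT36, and cry had its highest values of each day at ZT4 and ZT28.

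The hour of the peak, read from a 24 h cosine fitted to log2 CPM, was between ZT2.9 and ZT4.67 for the 10 genes higher in light and between ZT14.3 and ZT17.6 for the 35 genes lower in light. These hours lie near the middle of the sampled light and dark times, where a division into light and dark separates a cycling gene best, so they follow in part from the comparison itself. The fitted peaks of per (ZT12.2), vri (ZT12.8) and Clk (ZT1.15) lay nearer to the light switch. Those of tim and Pdp1 (both ZT14.1) lay close to the earliest of the genes lower in light (ZT14.3). The cosine explained 0.968 of the variance of per, 0.962 of that of vri and 0.953 of that of tim. For cry it explained 0.862, for Clk 0.812 and for Pdp1 0.752. These fits describe the curves and no call was made from them.

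**Figure D3:**
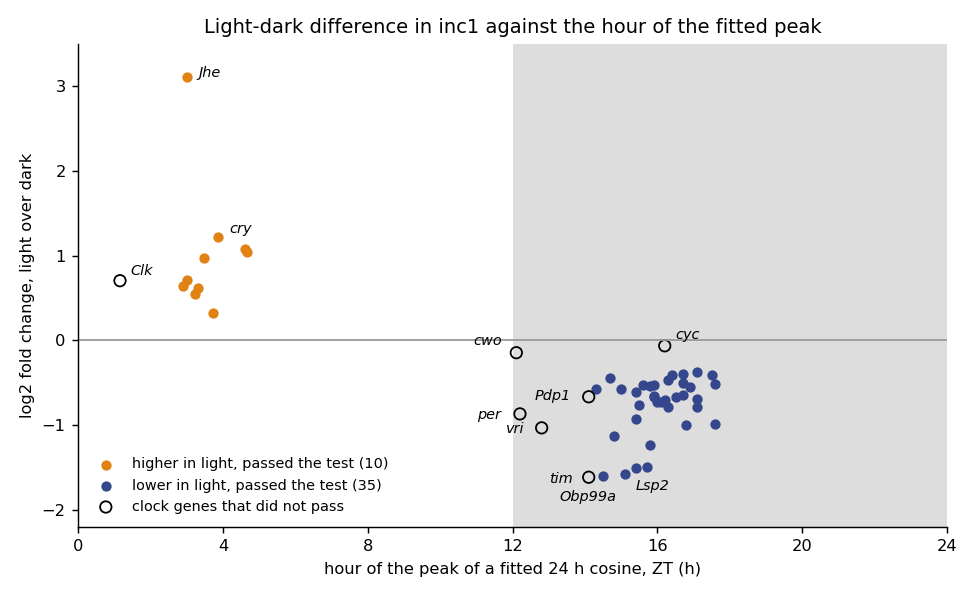
Log2 fold change of light over dark (vertical axis) against the hour of the peak of a fitted 24 h cosine (horizontal axis, ZT in h, dark phase shaded) for the 45 genes called in inc1 and, as open circles, the 7 clock genes that did not pass. The called genes sit at ZT2.9 to ZT4.67 and at ZT14.3 to ZT17.6, whereas per, vri and cwo peak close to ZT12.

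The other genes higher in light were of several kinds. The neighbouring genes Ir75a and Ir75b, ionotropic receptors of olfactory neurons in the antenna that respond to acids, are 151 bases apart on the minus strand of 3L. Ir75a was at 23.33, 31.08 and 43.34 CPM in light (lowest, median, highest), against 11.67, 15.49 and 20.58 CPM in dark, without overlap (log2 fold change 1.04, SE 0.18, adjusted p = 0.0289, edgeR). For Ir75b the values were 11.39, 14.65 and 19.3 CPM in light and 4.868, 7.355 and 9.897 CPM in dark (1.08, SE 0.19, adjusted p = 0.0325, edgeR). Both were highest at ZT4 to ZT8 or ZT28 and lowest at ZT16 and ZT40. The table holds 66 genes with an Ir symbol of this type, of which 8 were abundant enough to test, and these 2 were the ones called (background 0.1% higher in light). This family was counted after the values had been seen.

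The smallest adjusted p among the genes higher in light was that of firl, at 40.45, 45.83 and 50.39 CPM in light and 25.79, 28.91 and 34.7 CPM in dark (0.61, SE 0.08, adjusted p = 0.0105, edgeR). The gene lies on 2L at 12063457 to 12066775, and every light value was above every dark value. The P450 gene Cyp305a1 had 42.03, 56.14 and 64.51 CPM in light, against 29.35, 32.17 and 39.94 CPM in dark (0.72, SE 0.11, adjusted p = 0.0221, edgeR). Cyp4aa1 (0.64), Nt5a (0.55) and BBS9, a subunit of the BBSome of cilia (0.33), had adjusted p of 0.0364, 0.0403 and 0.0289 in edgeR. Jhe, which encodes juvenile hormone esterase, and CG15213 were also called, and they were named after their values were seen. Their levels were low, with a mean log2 CPM of 0.84 and 0.39, and the dark value of Jhe at ZT16 (0.08051 CPM) lay below 3 counts. Jhe had 2.573, 5.38 and 13.06 CPM in light, against 0.08051, 0.6009 and 1.247 CPM in dark, where 3 counts correspond to 0.117 to 0.175 CPM (log2 fold change 3.11, SE 0.60, adjusted p = 0.0453, edgeR). Its light values ran from 2.573 CPM at ZT8 to 13.06 CPM at ZT28, and none overlapped with those in dark.

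Among the genes lower in light, Obp99a had the largest change. This odorant binding protein gene was at 109.2, 139.9 and 160.4 CPM in light, against 177.1, 429.5 and 656.2 CPM in dark (log2 fold change -1.60, SE 0.26, adjusted p = 0.0257, edgeR). The level was highest at lights off, 656.2 CPM at ZT12 and 493.2 CPM at ZT36, and declined over each night to 291 CPM at ZT20 and 177.1 CPM at ZT44. Obp56a was also called (-0.73, SE 0.13, adjusted p = 0.0377, edgeR). Of 27 tested odorant binding protein genes, 2 were called, both lower in light (background 0.351%), 22 had a lower mean in light, and the median of the list was -0.22. Obp83ef had all dark values above all light values but missed the threshold (-0.47, SE 0.09, adjusted p = 0.0534, edgeR). Obp83a and Obp83b, which are expressed in antennal sensilla, had -0.92 and -0.91 (adjusted p = 0.305 and 0.268, edgeR). In these genes the first sampling day stood apart: the level of Obp83a was 6.932 to 7.225 CPM in light on the first day and 14.98 to 23.17 CPM in light on the second.

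Lsp2, a storage protein of the hexamerin type made in fat body, was at 736.8, 925.6 and 1650 CPM in light, against 1533, 3241 and 4812 CPM in dark (log2 fold change -1.58, SE 0.28, adjusted p = 0.034, edgeR). The ranges overlapped because ZT32 in light (1650 CPM) was above ZT40 in dark (1533 CPM). The gene lies on 3L at 12129393 to 12131869. Cyp4d21, also known as sxe1, is a P450 gene of head fat body that clock and sex determination genes are known to control. It had 81.34, 99.96 and 143 CPM in light, against 129.1, 225.9 and 249.5 CPM in dark (-0.99, SE 0.18, adjusted p = 0.0364, edgeR). The light values at ZT0 (132.6 CPM) and ZT24 (143 CPM) were above the dark value at ZT12 (129.1 CPM).

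The gene with the smallest p in the whole table was CG5853, an ABC transporter gene on 2L at 9940773 to 9947648. It had 47.67, 63.91 and 71.72 CPM in light, against 141.3, 176.3 and 205.5 CPM in dark, so that the lowest dark value was well above the highest light value (log2 fold change -1.50, SE 0.12, adjusted p = 0.000183, edgeR). It was the only one of the 45 genes that was also called without the libraries with body-tissue RNA (-1.58, adjusted p = 0.000952, edgeR). CG31100, at 27.83, 29.96 and 31.82 CPM in light and 43.28, 48.51 and 54.91 CPM in dark, had the next smallest p (-0.72, SE 0.07, adjusted p = 0.000875, edgeR). CG10073 was at 3.632 to 4.684 CPM in light and 6.515 to 9.246 CPM in dark (-0.99, SE 0.11, adjusted p = 0.00357, edgeR).

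Several of the other genes lower in light have known roles in metabolism. CG8665, which encodes a 10-formyltetrahydrofolate dehydrogenase, had a log2 fold change of -0.92 (SE 0.12, adjusted p = 0.0106, edgeR), and Mccc1, a subunit of methylcrotonyl-CoA carboxylase in leucine breakdown, one of -0.53 (SE 0.07, adjusted p = 0.0106, edgeR). The nucleoside transporter gene Ent2 (-0.52, SE 0.10, adjusted p = 0.0377, edgeR) and Ance-5, which is related to angiotensin-converting enzyme (-0.50, SE 0.07, adjusted p = 0.0122, edgeR), were named after their values were seen. CG18302 (-1.13), CG6409 (-0.79), CG10175 (-0.78) and CG16898 (-0.76) completed the 12 genes with the largest changes among those with a mean log2 CPM of at least 2, with adjusted p of 0.0124 to 0.0377 in edgeR. CG6012 (-1.23, SE 0.18, adjusted p = 0.0124, edgeR) and Cyp12d1-p (-1.50, SE 0.28, adjusted p = 0.0424, edgeR) were below that level.

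The cytochrome P450 family moved in both directions. Of 71 tested members, 2 were called higher in light (Cyp305a1 and Cyp4aa1) and 4 lower (Cyp4d21, Cyp18a1, Cyp4ac2 and Cyp12d1-p), beside 0.1% and 0.351% of all genes. At an unadjusted p under 0.05, 7 were higher and 13 lower, beside 3.63% and 5.95% of all genes, and the median was -0.09. Cyp18a1, the hydroxylase that inactivates ecdysteroids, was at 29.25, 34.18 and 36.82 CPM in light, against 44.88, 49.88 and 61.07 CPM in dark (-0.61, SE 0.08, adjusted p = 0.0121, edgeR). Cyp4ac2 (-0.53, adjusted p = 0.0124, edgeR) lies between Cyp4ac1 (-0.37, adjusted p = 0.311, edgeR) and Cyp4ac3 (0.30, adjusted p = 0.284, edgeR) on 2L, neither of which passed. Cyp12d1-p was at 0.6005 to 1.694 CPM in light and 1.984 to 4.549 CPM in dark. A near-identical copy, Cyp12d1-d, is among the genes counted here. Reads of Cyp12d1-p can be shared with it, so the value is uncertain. With Jhe higher and Cyp18a1 lower in light, 2 of 23 tested genes of juvenile hormone and ecdysone metabolism and response were called (background 0.451%), and the median of that list was 0.07. Among 22 tested genes known as clock outputs in heads, Cyp4d21 and Cyp18a1 were the 2 called (background 0.351% lower in light), and the median was 0.06. Of 19 tested UDP-glycosyltransferases, which conjugate sugars to small molecules, Ugt301D1 was called (-0.58, SE 0.10, adjusted p = 0.034, edgeR; background 0.351% lower in light), with 5 higher and 4 lower in light at an unadjusted p under 0.05 and a median of 0.06.

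Neprilysins, zinc metallopeptidases that cleave peptides outside the cell, gave 5 of the 35 genes lower in light. This family was counted after the values had been seen. Of 24 tested genes with a Nep or Nepl symbol, 5 were called, all lower in light (background 0.351%), 16 had a lower mean in light, and the median was -0.16. Nepl21 was at 110, 134 and 144.3 CPM in light, against 163.6, 205.7 and 239.8 CPM in dark (-0.64, SE 0.09, adjusted p = 0.0124, edgeR). Nepl20, which is 747 bases away on the same strand of 3R, was at 3.946 to 5.133 CPM in light and 6.115 to 9.299 CPM in dark (-0.69, SE 0.12, adjusted p = 0.034, edgeR). Nep6 (-0.57), Nepl12 (-0.52) and Nep7 (-0.47) had adjusted p of 0.0364, 0.0419 and 0.0377 in edgeR, and none of these genes overlapped between light and dark.

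In the visual system, 1 of 36 tested phototransduction and rhodopsin genes was called (background 0.451%). The channel gene trp, whose product carries the light response of photoreceptors, was at 1747, 1857 and 2375 CPM in light, against 2447, 2601 and 2897 CPM in dark (-0.45, SE 0.08, adjusted p = 0.0364, edgeR). The highest light value was at ZT32 and the groups did not overlap. The protein kinase C gene inaC, which acts in the same response, was at 432.1, 614.1 and 704.7 CPM in light and 320.8, 385.4 and 605.8 CPM in dark (0.47, SE 0.18, adjusted p = 0.393, edgeR). The summed level of 8 photoreceptor markers was 53860 to 62290 CPM in light and 52030 to 61230 CPM in dark (log2 difference 0.04, p = 0.483, exact permutation test, two-sided, p = 0.69 after adjustment over 10 marker lists).

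None of 48 tested sleep-related genes, 29 neuropeptide precursors, 32 synaptic genes or 17 activity-regulated transcription factors passed. At an unadjusted p under 0.05 these lists had 5, 2, 0 and 0 genes in both directions together, beside 3.63% of all genes higher and 5.95% lower in light. Most had a slightly higher mean in light: 40 of the 48 sleep-related genes (median 0.09), 23 of the 29 neuropeptide precursors (0.11) and 27 of the 32 synaptic genes (0.11), against 5329 of the 9969 genes tested (0.01). The neuropeptide gene Mip had 0.29 (SE 0.08, adjusted p = 0.216, edgeR) and the octopamine receptor gene Oamb 0.16 (SE 0.05, adjusted p = 0.242, edgeR), whereas CCHa2, a nutrient-dependent peptide, had -0.59 (SE 0.16, adjusted p = 0.164, edgeR). The sum of neuronal markers was 7259 CPM at ZT8 in light, 4167 to 4962 CPM in the other light libraries and 4163 to 5374 CPM in dark. After ZT8 it was highest at ZT44 (5374 CPM), ZT20 (5132 CPM) and ZT32 (4962 CPM), and at most 4579 CPM at other hours. The same hours were highest in WT (5047 to 5544 CPM, otherwise at most 4515 CPM) and in wakeD2 (5109 to 5958 CPM, otherwise at most 4628 CPM). ZT8 and ZT32 are in light and ZT20 and ZT44 in dark, so this pattern is part of the spread within each group. The part of the neuronal sum in these small differences was not tested.

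Most genes of fat body and of lipid metabolism had lower means in light, and Lsp2 was the member that passed. All 7 tested head fat body markers were lower in light, with a median of -0.35. Of them, 5 had an unadjusted p under 0.05, beside 5.95% of all genes lower in light at that p. Their summed level was 76200 to 119000 CPM in light (median 86970) and 96680 to 150000 CPM in dark (median 116100), a log2 difference of -0.40 (p = 0.0152, exact permutation test, two-sided, p = 0.152 after adjustment over 10 marker lists). The lipoprotein gene apolpp had -0.35 (SE 0.11, adjusted p = 0.275, edgeR), the yolk protein gene Yp3 -0.47 (SE 0.14, adjusted p = 0.223, edgeR) and fit, a secreted satiety signal made mainly in female fat body, -0.79 (SE 0.25, adjusted p = 0.274, edgeR). In bulk RNA, fewer fat body cells and less RNA per cell cannot be told apart. The pools held both sexes, and lncRNA:roX1, a male-specific RNA of dosage compensation, was at 465.5 to 736.6 CPM in light and 494.7 to 701.9 CPM in dark, so its ranges overlapped. With the sum of Yp1, Yp2, Yp3 and apolpp as a covariate, chosen after seeing the data, 0 genes were called higher and 2 lower in light (CG5853 and CG31100), Lsp2 had -0.96 (adjusted p = 0.789, edgeR) and Obp99a -1.30 (adjusted p = 0.789, edgeR).

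Of 35 tested genes of lipid synthesis and storage, 0 were called, 29 had a lower mean in light and the median was -0.13. Apoltp had -0.27 (SE 0.07, adjusted p = 0.14, edgeR). Of 39 tested genes of carbohydrate metabolism 0 were called, and 7 belonged to the body-tissue set. RNA of body tissues was in 3 light-hour libraries and 1 dark-hour library. Of the 39 genes, 25 had a higher and 14 a lower mean in light (median 0.04). At an unadjusted p under 0.05, 3 were higher and 5 lower, beside 3.63% and 5.95% of all genes. Among the lower ones, the hexokinase gene Hex-C had all light values (68.45 to 102 CPM) below all dark values (108.1 to 126.2 CPM) (-0.38, SE 0.09, adjusted p = 0.124, edgeR). The alpha-glucosidase gene tobi, a target of insulin and adipokinetic hormone signalling, just missed the threshold. It was at 74.62, 85.61 and 177.4 CPM in light, against 153.8, 280.4 and 528.4 CPM in dark (-1.52, SE 0.30, adjusted p = 0.0509, edgeR), and like Obp99a it was highest at ZT12 and ZT36. The translational repressor gene Thor had 0.47 (SE 0.15, adjusted p = 0.25, edgeR).

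Of 52 tested antimicrobial and immune effector genes, 0 were called, 39 had a lower mean in light (median -0.20) and 11 had an unadjusted p under 0.05, all lower in light. The median of this list was -0.25 in wakeD2 and -0.15 in WT. Over all genes tested, 3.63% were higher and 5.95% lower in light at an unadjusted p under 0.05, beside which the counts below are to be read. BomBc2, a Toll-regulated peptide gene, had -0.42 (SE 0.13, adjusted p = 0.267, edgeR), and the complement-like gene Tep2 had -0.28 (SE 0.08, adjusted p = 0.184, edgeR). Of the ribosomal protein genes, 76 of 79 cytosolic and 65 of 70 mitochondrial members had a lower mean in light, with medians of -0.11 and -0.14. The cytosolic members ran between -0.25 and 0.90, 0 of either list were called, and 1 cytosolic and 9 mitochondrial members were lower at an unadjusted p under 0.05. In the antioxidant and glutathione list, 0 of 45 were called, with 8 higher and 5 lower in light at an unadjusted p under 0.05, among them GstD3 (0.32, SE 0.08, adjusted p = 0.133, edgeR). Nuclear genes of oxidative phosphorylation had a lower mean in light in 61 of 66 cases (median -0.09), with 0 called and 3 lower at an unadjusted p under 0.05. Heat shock proteins (0 of 20), endoplasmic reticulum chaperones (0 of 29), proteasome subunits (0 of 31) and cuticle proteins (0 of 23) gave no call, with 2, 1, 1 and 4 genes at an unadjusted p under 0.05.

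**Figure D4:**
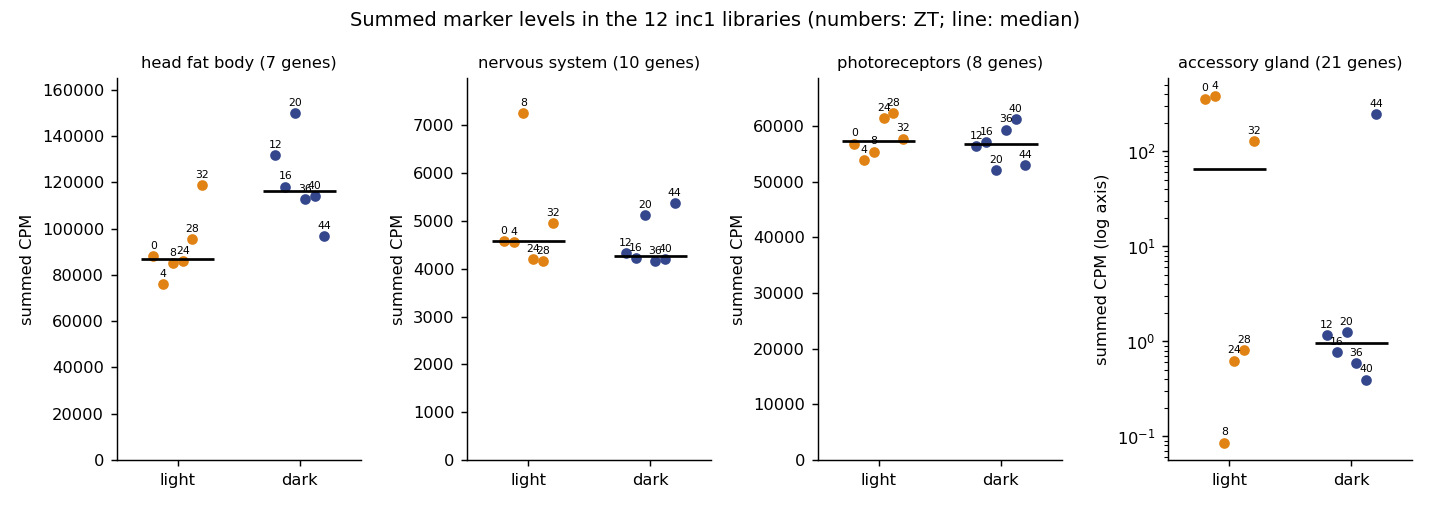
Summed CPM of 4 marker lists in the 6 light-hour (left) and 6 dark-hour (right) libraries of inc1, 1 point per library labelled with its ZT, with the median as a line; the accessory gland axis is logarithmic. The fat body sum is 76200 to 119000 CPM in light and 96680 to 150000 CPM in dark, ZT8 stands apart in the nervous system panel, and ZT0, ZT4, ZT32 and ZT44 stand apart in the accessory gland panel.

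The light-dark difference of inc1 was then set beside those of wakeD2 and WT in a fit of the 34 libraries of Day 27. In that fit, whose spread is shared by the 3 genotypes, 30 genes (0.301%) were higher and 100 (1%) lower in light in inc1, 21 (0.211%) and 28 (0.281%) in wakeD2, and 23 (0.231%) and 14 (0.14%) in WT. Of the genes called in inc1, 29 were also called in wakeD2, which is 22.3% of 130 in inc1 and 59.2% of 49 in wakeD2. With WT, 15 were shared, 11.5% of 130 in inc1 and 40.5% of 37 in WT, all in the same direction. WT had no library at ZT28 or ZT40, so the numbers called in inc1 and WT rest on unlike sets of collection times. In the first comparison, 13 of the 45 genes kept their call without ZT28, and 13 without ZT40. The 45 genes of the first comparison had the same sign in wakeD2 in 43 cases and in WT in 45, while over all 9969 genes 65.9% and 60% had the same sign.

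The difference between genotypes was itself tested, and no gene passed in fits of all 34 libraries without a term for the collection timepoint. For inc1 against WT, edgeR called 0 genes in either direction, with 398 (3.99%) at an unadjusted p under 0.05, and for inc1 against wakeD2 it called 0, with 209 (2.1%) at an unadjusted p under 0.05. DESeq2 called 0 in both. These fits had no term for the collection timepoint, and in them no light-dark difference of inc1 was shown to be particular to it. With such a term, 5 genes were called higher and 158 lower in inc1 than in WT, and 17 lower than in wakeD2. Deviations of inc1 and WT libraries from their group means correlated at 0.42 on average at the same timepoint. For the same hour of the other day the mean was 0.05. For wakeD2 these means were 0.02 and 0.16. The calls between genotypes thus depended on whether timepoints were matched. In cry the log2 fold changes in the edgeR fit without that term were 1.22 in inc1 (adjusted p = 0.00187, edgeR), 1.30 in wakeD2 (adjusted p = 0.00264, edgeR) and 1.26 in WT (adjusted p = 0.00991, edgeR). The value in inc1 minus that in wakeD2 was -0.08 (SE 0.30), and minus that in WT -0.04 (SE 0.32). In CG5853 the log2 fold changes were -1.50 in inc1, -1.10 in wakeD2 and -1.06 in WT, and the value in inc1 minus that in wakeD2 was -0.40 (SE 0.17) and minus that in WT -0.44 (SE 0.18), with an adjusted p of 1 for both in edgeR.

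The genes with the smallest p for a difference between genotypes are given as values. Unless stated, these are from the fit without a term for the collection timepoint. Lsp2 had 1031 ± 327.5 CPM in light and 3079 ± 1201 CPM in dark in inc1 (SD, n = 6 each), 534.1 ± 236.7 and 429 ± 214 CPM in light and dark in wakeD2 (SD, n = 6 each), and 702.1 ± 95.77 and 736.5 ± 350 CPM in light and dark in WT (SD, n = 5 each). For Lsp2 the log2 fold change in inc1 minus that in wakeD2 was -1.89 (SE 0.46, adjusted p = 0.818, edgeR), and minus that in WT -1.51 (SE 0.48, adjusted p = 1, edgeR). CG10073 averaged 4.09 CPM in light and 8.149 CPM in dark in inc1, 1.234 and 1.202 CPM in wakeD2, and 1.869 and 2.286 CPM in WT, and the difference between inc1 and wakeD2 was -1.03 (SE 0.25, adjusted p = 0.818, edgeR). P5cr-2, a pyrroline-5-carboxylate reductase gene of proline synthesis, had -0.50 (SE 0.11, adjusted p = 0.774, edgeR) against wakeD2 and -0.45 (SE 0.11, adjusted p = 1, edgeR) against WT. The genes with the smallest p against WT were CG7384 (-0.46), CG30002 (-0.52) and yellow-e (-0.76), each with an adjusted p of 0.881 in edgeR, and CG9664 had -0.52 (adjusted p = 1, edgeR). CG5819 (-0.45) and the long noncoding RNA CR43417 (-0.60) had adjusted p of 1 against wakeD2. With a term for the collection timepoint, adjusted p against WT in edgeR was 0.00191 (CG9664), 0.00967 (CG7384), 0.0169 (Lsp2) and 0.0204 (P5cr-2). CG30002 (0.0236), CG5819 (0.026) and yellow-e (0.0439) passed against WT in that edgeR fit too. Against wakeD2, Lsp2 (0.0164), CG10073 (0.0341), CR43417 (0.0374) and P5cr-2 passed in it. CG10073 and CR43417 did not pass against WT, nor did CG7384, CG30002, yellow-e, CG9664 and CG5819 against wakeD2. The head fat body list, with a median of -0.35 in inc1 in the first comparison, had 0.00 in wakeD2 and 0.02 in WT. Body-tissue RNA was found in 6 light-hour and 5 dark-hour libraries of wakeD2 and in 2 dark-hour libraries of WT by the median of the accessory gland genes. The light-hour WT library at ZT4 lay just under that limit of 1 CPM, at 0.9808 CPM, with a summed midgut level of 192.2 CPM. Without a term for the collection timepoint, interaction fits with the body-tissue marker sum as a covariate gave no call. Nor did the fit against WT without the libraries with body-tissue RNA. The fits without these changes had also called no gene, so these counts do not measure the part of that RNA. Its part in these differences was not tested.

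**Figure D5:**
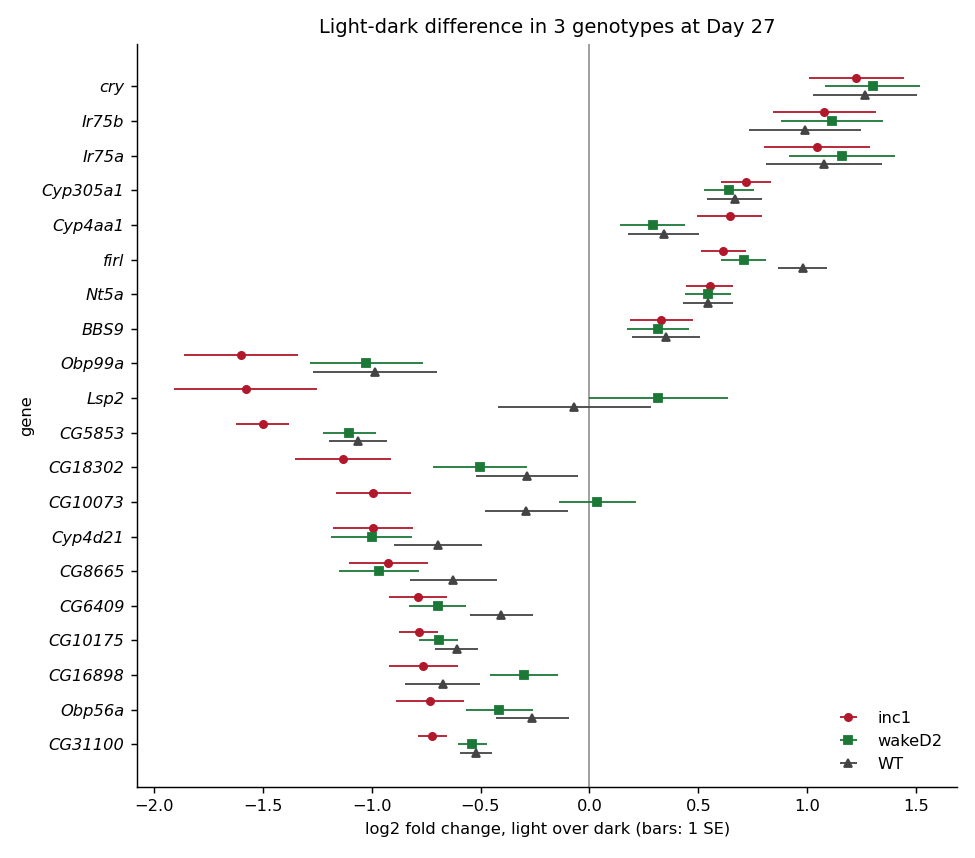
Log2 fold change of light over dark (horizontal axis, bars 1 SE) of the 20 named genes in inc1 (red circles, n = 12), wakeD2 (green squares, n = 12) and WT (grey triangles, n = 10), from 1 fit of the 34 libraries of Day 27. The genes were chosen in inc1. In cry, Ir75a and Nt5a the 3 genotypes lie close together, and Lsp2 and CG10073 lie furthest apart. No difference passed the threshold in this fit, which had no term for the collection timepoint. With that term, Lsp2 passed against both genotypes and CG10073 against wakeD2.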

How the data were processed

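RNA was sequenced from heads of inc1, wakeD2 and WT flies. The authors made stranded mRNA libraries, aligned single reads with STAR 2.4.2a after bcl2fastq 2.20 (per the submitters' processing notes) to the Release 6 assembly of the fly genome and deposited raw read counts per gene from featureCounts, without normalization. The strand setting of that counting was not given in the sources used here. Of 17490 gene IDs, 17288 were matched to symbols and positions in a later annotation of the same assembly.

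The filter of the study was applied: a gene was dropped when over 28 libraries had it below 1 CPM, and 9969 genes passed. Counts were tested with edgeR 4.0.16 in R 4.3.3, with TMM factors over all 46 libraries, a quasi-likelihood test on the 12 inc1 libraries and Benjamini-Hochberg adjustment over the 9969 genes. Light-dark differences of 2 genotypes were compared by an interaction term in a fit of 34 libraries. DESeq2 1.42.0 was an alternative, as were other normalizations, filters, libraries and covariates. Summed marker levels, as log2 of CPM plus 1, were compared by exact permutation of the 12 libraries. Figures were drawn with matplotlib 3.10.9 under Python 3.11.15. The scripts were tested on simulated counts. No 2 inc1 libraries were copies (smallest chi-square per degree of freedom 11.04).

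Body-tissue genes were the accessory gland, ejaculatory bulb, testis and midgut lists and genes at least 1 log2 unit higher in WT libraries with body-tissue RNA than in the others. Named genes were up to 12 called genes with the largest change in each direction, outside that set and with a mean log2 CPM of at least 2, the clock genes, and up to 4 genes with the smallest p from each list. The members and the lists were chosen with earlier results of these data known. Intervals and floors cover counting error and the spread between collection times, not repeated pools. No sequence was analysed here.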

Additional observations from a re-analysis of the deposited data

Results flagged for a closer look

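In 146 groups of 6 inc1 values (named genes, summed marker levels and total counts, light and dark apart), 11 values stood apart from the other 5 by Dixon's criterion, where chance alone marks about 1 in 20 groups. In light these were Jhe at ZT28 (13.06 CPM, the next at 6.324), Cyp4aa1 at ZT28 (26.33 CPM, the next at 24.62), trp at ZT32 (2375 CPM, the next at 1972), Ent2 at ZT32 (67.77 CPM, the next at 54.01) and the summed neuronal markers at ZT8 (7259 CPM, the next at 4962). In dark they were Yp3 at ZT44 (27110 CPM, the next at 38090), Apoltp at ZT36 (487.8 CPM, the next at 570.9) and apolpp at ZT12 (11210 CPM, the next at 8966). The remaining 3 were the body-tissue sums of the dark-hour library at ZT44, which was at 246.9 CPM for male accessory gland, 392.9 CPM for testis and 398.4 CPM for midgut, against at most 1.247, 206 and 19.3 CPM in the other dark-hour libraries.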

How the results depend on the processing

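The counts of genes called in inc1, 10 higher and 35 lower in light, moved by over 1.5 times in one or both directions under most settings tried. They were 61 and 156 with DESeq2, 3 and 18 with no filter on low counts, 15 and 58 among genes with at least 1 CPM in 6 inc1 libraries, 32 and 100 in a fit of all 46 libraries, 4 and 21 with sampling day as a term, 104 and 184 with the 6 times of day as terms, 18 and 21 with hours set by the light before collection, 0 and 2 without the libraries with body-tissue RNA, and 0 and 0 within the first or the second sampling day alone, where 3 libraries faced 3. Of the alternatives added after seeing the data, the accessory gland and midgut sum as a covariate gave 5 and 16, the yolk protein and apolpp sum 0 and 2, and leaving out ZT8 with the body-tissue libraries 9 and 9. Leaving out 1 library gave 1 to 13 higher and 10 to 41 lower. Fewer libraries or more terms leave fewer degrees of freedom, and otherwise the cause was not tested. Signs changed for 12 named genes when hours were set by the light before collection: Obp99a 0.0872, Lsp2 0.0132, tim 0.0206, vri 0.40, Clk -0.23, per 0.58, cwo 0.17, Ugt301D1 0.0498, tobi 0.30, inaC -0.23, fit 0.14 and apolpp 0.0486. The sign of cwo also changed without the hours at the light switch (0.0204) and with the yolk protein covariate (0.0471). Without the body-tissue libraries the marker sums of glia (0.0501), accessory gland (-0.29) and midgut (-0.28) changed sign. The interactions gave 0 calls under every setting but 2. When the timepoint of collection entered as a replicate block, 5 genes were called higher and 158 lower in inc1 than in WT, and 0 and 17 against wakeD2. The correlations of deviations at the same timepoint were over 0.1 at 7 of 10 timepoints for WT and 4 of 12 for wakeD2. Leaving out 1 library gave 0 to 1 lower against wakeD2 and 0 otherwise. The interaction with wakeD2 without body-tissue libraries was not run, since no light-hour library of wakeD2 was left.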
